A study of Arabidopsis thaliana with 12 samples.

Results

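Transcripts of 10 alpha-expansin genes, *EXPA1*, *EXPA3*, *EXPA4*, *EXPA5*, *EXPA6*, *EXPA8*, *EXPA10*, *EXPA11*, *EXPA12* and *EXPA15*, were followed in the aerial parts of Arabidopsis seedlings of 4 genotypes. They are 10 of the 26 genes on a list of the *EXPA* family, and 10 of the 23784 genes in the count table. The genes were picked by identifier with their values in all 4 genotypes already known, so the differences between genotypes given for them are descriptions and carry no test. All 10 were found in the table, 9 of them with counts in each of the 12 libraries, and *EXPA12* had no counts in WT or *epn*. The other 9 had mean WT levels of at least 17.0 CPM (counts scaled to a common library total). That was above *EXPA13* and *EXPA9*, the highest *EXPA* genes left out, at 12.6 and 12.1 CPM in WT. Only *EXPA12* broke that order of level.

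The 4 genotypes, all in the Columbia-0 background, were WT, *epn*, *quintuple* and *octuple*, each with 3 biological replicates of 20 to 30 pooled seedlings aged 2 weeks and grown with 16 h of light per day. The *epn* plants, labelled triple in the sample names, carry *eds1*;*pad4*;*ndr1* and so lack the canonical signalling of effector-triggered immunity (ETI). The *quintuple* plants carry *cbp60b*;*c*;*d*;*e*;*f*, lesions in the CBP60b clade of the calmodulin-binding CBP60 transcription factors, and the *octuple* plants carry all of these lesions together. The pairs *quintuple*-vs-WT and *octuple*-vs-*epn* ask what loss of the clade does with and without ETI signalling. The study describes *quintuple* plants as dying as young seedlings, near the age sampled here, which limits that genotype as a model of living tissue.

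Libraries held 38698646 to 44294404 counted fragments, so 3 counts correspond to 0.0677 to 0.0775 CPM. *EDS1* and *PAD4* transcripts were lower in every *epn* and *octuple* library than in any WT library. *NDR1* transcripts were so in *octuple* but reached 6.14 CPM in *epn*, above the lowest WT library at 5.50 CPM. *CBP60b* transcripts averaged 208 CPM in *quintuple* against 42.7 CPM in WT. Counts over a whole gene do not show whether its product is made, so the *cbp60* labels were not checked by them. The defining leaf transcripts (*RBCS1A*, *CAB1*, *CA1* and *RCA*) were abundant in all libraries, with a summed level of 45026 to 69092 CPM in WT and 4240 to 21556 CPM in *quintuple*, whereas 5 root markers together stayed at or under 1.98 CPM everywhere. In every genotype replicate 3 was set off from the other replicates along principal component 2 (11.4% of the variance).

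Expansins are secreted proteins that loosen plant cell walls without cutting their polymers. They act best in an acidic wall, so proton pumps of the plasma membrane and the proteins that regulate those pumps act upstream of them in what is called acid growth. Alpha-expansins form the largest branch of the family in Arabidopsis. In this species *EXPA10* is known for leaf and petiole growth, *EXPA5* for growth under brassinosteroids, and *EXPA7* and *EXPA18* for root hairs. Beta-expansins and the expansin-like A and B genes (*EXLA*, *EXLB*) are the other branches.

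All 10 genes were separable in the counts, since none overlapped another annotated gene and 0% of their exonic 50-base sequences occurred in another gene. They lie on chromosomes 1, 2 and 3 of the TAIR10.1 build. *EXPA1* (AT1G69530, chr1:26141726-26143538, plus strand) and *EXPA10* (AT1G26770, chr1:9259432-9261313, plus strand) had the most similar coding sequences, with 78.0% identical bases. *EXPA4* (AT2G39700, chr2:16543832-16545746, minus strand) and *EXPA6* (AT2G28950, chr2:12431338-12433796, minus strand) followed with 75.6%. *EXPA3* (AT2G37640) lies at chr2:15787523-15790139 and *EXPA5* (AT3G29030) at chr3:11011262-11013451, both on the minus strand. *EXPA12* (AT3G15370, chr3:5190554-5192197, plus strand) was in each of the 5 least similar pairs, down to 54.0% with *EXPA6*. *EXPA8* (AT2G40610, chr2:16948791-16950705), *EXPA11* (AT1G20190, chr1:6998335-6999839) and *EXPA15* (AT2G03090, chr2:916806-918671) are all on the minus strand.

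The 250 bases upstream of the annotated starts were read from the RefSeq TAIR10.1 genome and searched on both strands for letters known to be bound by growth, light and immune factors. Windows are shown for the most similar pair (*EXPA1* and *EXPA10*), for the genes with the lowest *quintuple* levels relative to WT among those with counts there (*EXPA5* and *EXPA3*), for a gene counted in all libraries that was higher in both *cbp60* genotypes (*EXPA4*), and for the gene without counts in WT (*EXPA12*). Each is written 5′ to 3′ on the strand of its gene, with motif matches in capitals.
EXPA1, chr1:26141476-26141725, plus strand: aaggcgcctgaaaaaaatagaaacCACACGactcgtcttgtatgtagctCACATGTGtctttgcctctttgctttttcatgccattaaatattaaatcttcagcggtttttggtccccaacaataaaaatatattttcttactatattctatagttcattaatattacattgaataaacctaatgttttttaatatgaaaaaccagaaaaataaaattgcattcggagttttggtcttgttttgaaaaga
EXPA10, chr1:9259182-9259431, plus strand: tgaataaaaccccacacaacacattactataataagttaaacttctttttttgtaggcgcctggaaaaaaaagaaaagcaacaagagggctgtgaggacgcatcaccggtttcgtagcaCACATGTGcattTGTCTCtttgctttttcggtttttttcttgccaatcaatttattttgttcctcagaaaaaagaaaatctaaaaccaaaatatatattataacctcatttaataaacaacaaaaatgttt
EXPA5, chr3:11013452-11013701, minus strand: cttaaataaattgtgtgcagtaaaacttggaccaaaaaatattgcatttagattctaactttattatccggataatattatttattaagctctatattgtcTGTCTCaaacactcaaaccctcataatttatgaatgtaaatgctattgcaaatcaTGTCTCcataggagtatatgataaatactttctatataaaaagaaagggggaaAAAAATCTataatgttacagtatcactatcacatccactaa
EXPA3, chr2:15790140-15790389, minus strand: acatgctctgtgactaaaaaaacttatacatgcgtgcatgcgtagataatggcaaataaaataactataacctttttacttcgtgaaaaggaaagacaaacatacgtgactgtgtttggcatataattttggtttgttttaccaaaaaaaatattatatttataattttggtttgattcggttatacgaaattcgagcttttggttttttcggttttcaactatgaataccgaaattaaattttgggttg
EXPA4, chr2:16545747-16545996, minus strand: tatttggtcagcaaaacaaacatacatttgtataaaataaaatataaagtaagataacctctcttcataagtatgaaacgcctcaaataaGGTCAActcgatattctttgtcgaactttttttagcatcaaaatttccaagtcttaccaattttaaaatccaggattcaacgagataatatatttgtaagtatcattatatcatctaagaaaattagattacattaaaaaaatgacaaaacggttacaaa
EXPA12, chr3:5190304-5190553, plus strand: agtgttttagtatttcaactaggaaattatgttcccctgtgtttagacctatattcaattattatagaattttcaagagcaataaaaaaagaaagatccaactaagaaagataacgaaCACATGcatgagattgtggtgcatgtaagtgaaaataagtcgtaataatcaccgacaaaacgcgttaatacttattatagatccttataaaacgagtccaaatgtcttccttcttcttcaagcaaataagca

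The letters CACATG or CATGTG, an E-box bound by PHYTOCHROME INTERACTING FACTORS (PIFs), were in 4 of the 10 windows (*EXPA1*, *EXPA10*, *EXPA11* and *EXPA12*) and in 11.2% of the 23783 windows of all genes. *EXPA1* and *EXPA10* both hold them as the palindrome CACATGTG, in which the 2 forms overlap. The auxin response letters TGTCTC were in 3 windows (*EXPA5*, *EXPA6* and *EXPA10*) and in 10.9% of all windows. The brassinosteroid response letters CGTGCG or CGTGTG were in 2 windows (*EXPA1* and *EXPA6*) and in 6.93% of all windows, and the W-box letters TTGACC or TTGACT of WRKY factors in 2 (*EXPA4* and *EXPA8*) and 28.5%. *EXPA5* alone held the letters AAAAATCT of the clock factor CCA1, which were in 6.63% of all windows. No member window held the G-box CACGTG (7.10% of all windows), TGACG (19.0%) or the evening element AAATATCT (4.89%). *EXPA3* and *EXPA15* held none of the 8 motifs. A match is a description of letters and not a site.

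In WT the 10 genes covered a wide range of levels per transcript length, given as FPKM, fragments scaled by library total and exon length. *EXPA1* stood first with 124 ± 54.6 FPKM (SD, n = 3), followed by *EXPA6* with 91.0 ± 9.50 and *EXPA5* with 63.1 ± 1.62. *EXPA10* (46.4 ± 28.0), *EXPA8* (37.4 ± 27.4), *EXPA3* (28.5 ± 7.20), *EXPA4* (27.7 ± 8.34) and *EXPA11* (22.8 ± 7.17) came next, and *EXPA15* (11.5 ± 5.15) was the lowest with any counts. The difference between *EXPA1* and *EXPA6* was within the spread of *EXPA1*, and the neighbours from *EXPA10* to *EXPA11* did not differ beyond their spreads. The order in *epn* was the same except that *EXPA3* and *EXPA4* changed places, at 24.7 ± 8.39 and 28.4 ± 13.9 FPKM.

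**Figure D1:**
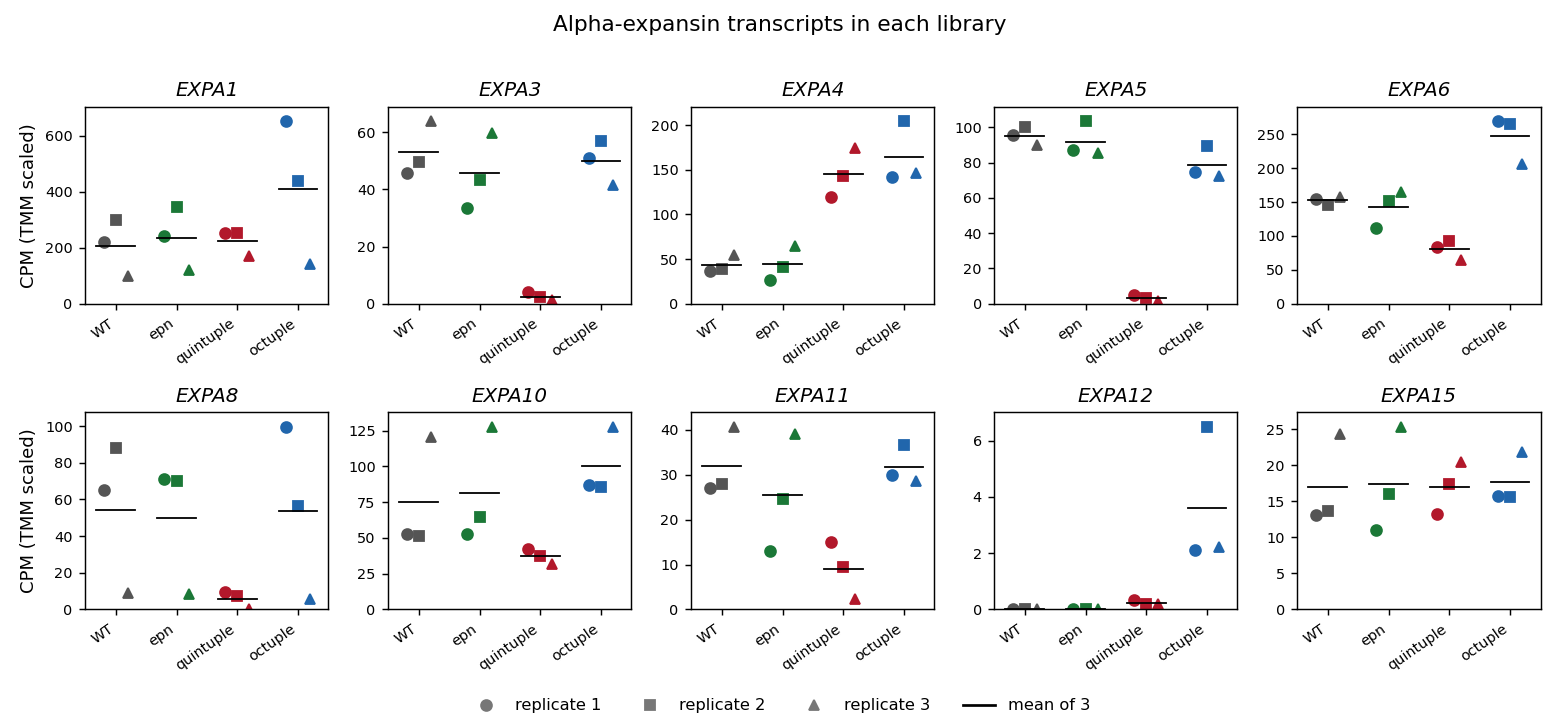
CPM with TMM scaling (y axis, linear, from 0) of the 10 alpha-expansins in the 12 libraries, by genotype (x axis). Circles, squares and triangles are replicates 1, 2 and 3 and lines are means of 3. *EXPA3* and *EXPA5* are near 0 in *quintuple* and close to the WT range in *octuple*, *EXPA4* is high in both *cbp60* genotypes, and *EXPA8* is low in every replicate 3.

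*EXPA5* and *EXPA3* were nearly lost from *quintuple* and close to WT in *octuple*. Values are CPM after TMM scaling, in the order of replicates 1, 2 and 3. *EXPA5* had 95.6, 99.96 and 90.0 CPM in WT and 87.2, 103 and 85.3 CPM in *epn*. It had 5.23, 3.07 and 1.41 CPM in *quintuple* and 74.6, 89.5 and 72.6 CPM in *octuple*. The *quintuple* libraries thus lay far below all others, and each *octuple* library lay below every WT library by a small margin. The fitted log2 fold change of *EXPA5* was -4.88 (SE 0.49) in *quintuple*-vs-WT, -0.27 (SE 0.12) in *octuple*-vs-WT and -0.23 (SE 0.14) in *octuple*-vs-*epn*.

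*EXPA3* showed the same contrast at a lower level. It had 45.8, 49.7 and 63.8 CPM in WT and 33.4, 43.5 and 59.9 CPM in *epn*. It had 4.20, 2.24 and 1.16 CPM in *quintuple* and 51.0, 57.0 and 41.5 CPM in *octuple*. The *octuple* values fell inside the range of WT and *epn* together, and no *quintuple* value came near it. The log2 fold change was -4.40 (SE 0.49) in *quintuple*-vs-WT and -0.09 (SE 0.18) in *octuple*-vs-WT.

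*EXPA4* was the one gene, of those with counts in WT, that was far higher in *quintuple* and as high in *octuple*. It had 37.0, 38.5 and 54.6 CPM in WT and 26.3, 40.7 and 64.9 CPM in *epn*. It had 119.8, 143 and 174 CPM in *quintuple* and 142, 204 and 146 CPM in *octuple*. All 6 libraries of the 2 *cbp60* genotypes lay above all 6 libraries of WT and *epn*. The log2 fold change was 1.75 (SE 0.22) in *quintuple*-vs-WT, 1.92 (SE 0.22) in *octuple*-vs-WT and 1.89 (SE 0.35) in *octuple*-vs-*epn*. Between *octuple* and *quintuple* it was 0.20 (SE 0.22), and -0.09 when libraries were scaled by their totals alone, so no direction is given for that pair.

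*EXPA12*, the member least like the others in sequence, was counted only where the *cbp60* lesions were present. It had 0 counts in the 6 libraries of WT and *epn*. It had 13, 9 and 10 counts in *quintuple* and 88, 262 and 102 counts in *octuple*, or 2.12, 6.49 and 2.20 CPM in the latter. Against a limit of 3 counts per library, and with library totals as the scale, the *quintuple* level was at least 3.804-fold higher than the WT level. The *octuple* level was at least 48.3-fold higher than WT and at least 47.6-fold higher than *epn*, and at least 30.7-fold and 30.2-fold higher without *octuple* replicate 2. The *octuple* libraries did not overlap the *quintuple* libraries, with a log2 fold change of 3.94 (SE 0.60). Even in *octuple* its mean of 2.95 ± 1.87 FPKM was the lowest of the 10.

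*EXPA6* was lower in *quintuple* and higher in *octuple*. It had 155, 145 and 157 CPM in WT and 112, 151 and 164 CPM in *epn*. It had 84.2, 92.9 and 65.1 CPM in *quintuple* and 269, 265 and 206 CPM in *octuple*. Every *quintuple* library lay below, and every *octuple* library above, all libraries of WT and *epn*. The log2 fold change was -0.92 (SE 0.16) in *quintuple*-vs-WT, 0.70 (SE 0.13) in *octuple*-vs-WT and 0.78 (SE 0.20) in *octuple*-vs-*epn*, each under the 2-fold limit of a call. The value passed that limit in *quintuple*-vs-WT with upper-quartile scaling (-1.08) or without *quintuple* replicate 2 (-1.03), and in *octuple*-vs-*epn* with replicates 1 and 2 only (1.03).

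*EXPA10* and *EXPA11* were lower in *quintuple* by smaller amounts. *EXPA10* had 52.9, 51.6 and 121 CPM in WT and 52.5, 64.3 and 128 CPM in *epn*. It had 42.4, 37.1 and 31.8 CPM in *quintuple* and 86.9, 85.6 and 127 CPM in *octuple*. The *quintuple* libraries were below all others, but in *quintuple*-vs-WT the log2 fold change of -1.02 (SE 0.36) became -0.52 without WT replicate 3.

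*EXPA11* had 27.1, 27.9 and 40.6 CPM in WT and 12.96, 24.7 and 39.04 CPM in *epn*. It had 15.0, 9.53 and 2.34 CPM in *quintuple* and 29.9, 36.6 and 28.7 CPM in *octuple*. Its *quintuple* libraries lay below all WT libraries but overlapped *epn* at replicate 1. The log2 fold change was -1.84 (SE 0.61) in *quintuple*-vs-WT and -0.01 (SE 0.19) in *octuple*-vs-WT.

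*EXPA8* differed as much between replicates as between genotypes. It had 65.2, 88.2 and 8.99 CPM in WT and 71.1, 70.1 and 8.66 CPM in *epn*. It had 9.30, 7.56 and 0.329 CPM in *quintuple* and 99.6, 56.6 and 5.48 CPM in *octuple*. Replicate 3 was the lowest in every genotype, and the *quintuple* library was the lowest at every replicate number. The log2 fold change in *quintuple*-vs-WT was -3.24 (SE 1.24), and its SE was the largest among the 9 members fitted.

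*EXPA1* and *EXPA15*, the highest member and the lowest of those with counts in WT, showed no difference beyond the spread in *quintuple*. *EXPA1* had 220.4, 301 and 101 CPM in WT and 241, 345 and 121 CPM in *epn*. It had 252, 254 and 171 CPM in *quintuple* and 651, 437 and 141 CPM in *octuple*. The first 2 *octuple* libraries were the highest of the 12, and the third lay within the WT range. Its log2 fold change was 0.12 (SE 0.40) in *quintuple*-vs-WT and 0.99 (SE 0.62) in *octuple*-vs-WT. *EXPA15* ranged from 11.0 to 25.3 CPM over all 12 libraries, with log2 fold changes of 0.00 (SE 0.29) in *quintuple*-vs-WT and 0.06 (SE 0.28) in *octuple*-vs-WT. Its groups overlapped in all comparisons.

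**Figure D2:**
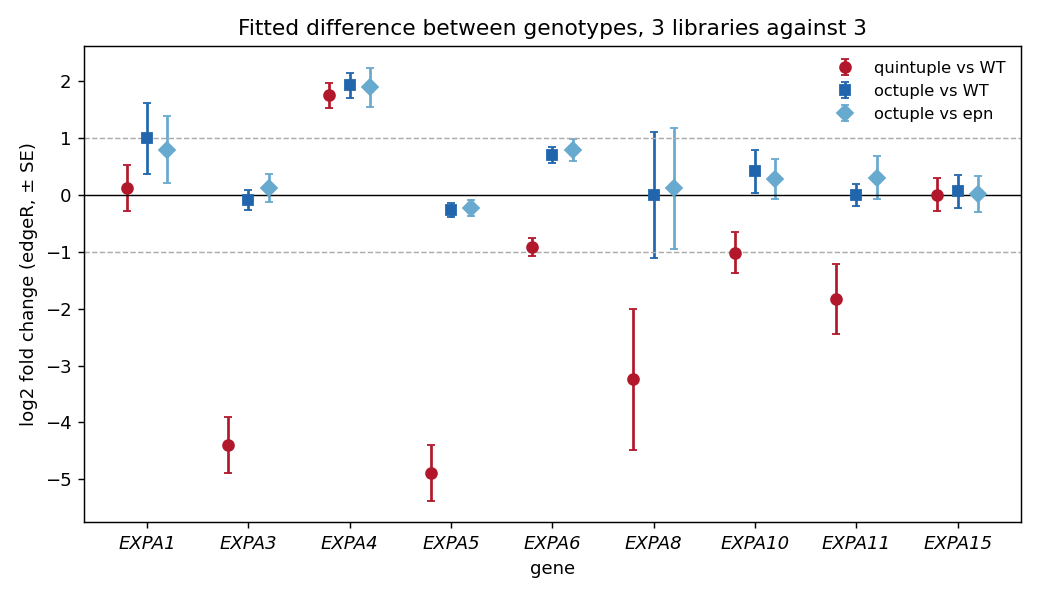
Fitted log2 fold change (y axis, edgeR, points with SE bars) of 9 alpha-expansins (x axis) in *quintuple*-vs-WT (circles), in *octuple*-vs-WT (squares) and for *octuple* against *epn* (diamonds), with dashed lines at 2-fold. *EXPA12* is left out because it has no counts in WT and *epn*. *EXPA3* and *EXPA5* are at -4.40 and -4.88 in *quintuple*-vs-WT, and *EXPA4* lies between 1.75 and 1.92 in all 3 comparisons.

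A DEG was called at a Benjamini-Hochberg adjusted p below 0.05 in edgeR's quasi-likelihood test and a fold change of at least 2. In *quintuple*-vs-WT, 1 of the 9 members tested met these limits as higher (*EXPA4*) and 4 as lower (*EXPA3*, *EXPA5*, *EXPA10* and *EXPA11*), where 19.5% of the 19691 genes tested were called higher and 19.5% lower. With the replicate number as a block (19.9% of all genes higher, 20.4% lower), *EXPA10* and *EXPA11* no longer met them and *EXPA8* did. *EXPA8* met them also with DESeq2, limma or upper-quartile scaling, without WT replicate 3, and with replicates 1 and 2 only. *EXPA10* failed to meet them with library totals alone, limma or replicates 1 and 2 only, and without WT replicate 3 or any 1 *quintuple* library, and *EXPA11* without any 1 WT library or *quintuple* replicate 2. In the comparisons with *octuple*, *EXPA12* passed the filter on low counts through the *octuple* libraries alone and is left out of the counts. In *octuple*-vs-WT, *EXPA4* met the limits as higher and no other member as higher or lower, where 1.78% of 19256 genes were called higher and 0.151% lower. *EXPA4* no longer met them there without WT replicate 1 or 2 or *octuple* replicate 1 or 2, with log2 fold changes of 1.73 to 2.01. It also met them in *octuple*-vs-*epn*, where 2.29% of 19238 genes were called higher and 0.125% lower, and no longer when any 1 library other than *epn* replicate 3 was left out (log2 fold changes of 1.63 to 1.98) or with upper-quartile scaling (1.86). These comparisons share the *octuple* libraries, so their counts are not separate evidence. The balance of calls over all genes depended on the scaling where *quintuple* was involved. In *quintuple*-vs-WT it was 3846 higher and 3849 lower with TMM, 4858 and 2955 with library totals alone, which moved the all-gene median to 0.27 on the log2 scale, and 3848 and 2142 with limma on FPKM.

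The member counts that follow, too, describe values that were known when the genes were picked. In *octuple*-vs-*quintuple*, 5 of the 9 members other than *EXPA12* met the limits as higher (*EXPA3*, *EXPA5*, *EXPA6*, *EXPA10* and *EXPA11*) and none as lower, where 16.7% of 19643 genes were called higher and 14.9% lower. *EXPA8* joined them with the replicate block (17.7% of all genes higher, 15.3% lower), with DESeq2, without *octuple* replicate 3 and with replicates 1 and 2 only, and *EXPA11* no longer met them without *quintuple* replicate 2 or without any 1 *octuple* library, at log2 fold changes of 1.75 to 1.94. *EXPA1* met them without *octuple* replicate 3, at 1.31, and with replicates 1 and 2 only, at 1.13. The log2 fold changes were 4.34 (SE 0.48) for *EXPA3*, 4.64 (SE 0.48) for *EXPA5*, 1.64 (SE 0.20) for *EXPA6* and 1.46 (SE 0.20) for *EXPA10*. In *epn*-vs-WT no member met the limits, all log2 fold changes lay between -0.31 and 0.19, and 0.0% of the 18992 genes tested were called. At an unadjusted p below 0.05, 419 genes differed in that pair, and DESeq2 called 40. For the interaction, (*octuple* - *epn*) minus (*quintuple* - WT), 3 members met the limits as positive (*EXPA3* at 4.52, *EXPA5* at 4.66 and *EXPA6* at 1.71 on the log2 scale) and none as negative, where 13.9% of 20134 genes were called higher and 8.74% lower. *EXPA8* met them with the block or with replicates 1 and 2 only, and *EXPA10* with the block or without *epn* replicate 3. *EXPA11*, at 2.14, met them with upper-quartile scaling, DESeq2, limma or replicates 1 and 2 only, and without *epn* replicate 3 or *quintuple* replicate 1 or 3. *EXPA4* had an interaction value of 0.15 (SE 0.43).

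The make-up of the summed alpha-expansin signal differed between genotypes, most of all in *quintuple*. The sum over the 10 genes was 453 ± 29.7 FPKM for WT libraries and 459 ± 50.9 FPKM for *epn* (SD, n = 3). It was 390.4 ± 17.3 FPKM for *quintuple* and 727 ± 177 FPKM for *octuple*. These FPKM lack the TMM factors of the CPM above (1.06 to 1.26 in *quintuple*, 0.90 to 1.05 elsewhere). The *quintuple* levels thus stand higher against the other genotypes than they do in CPM. *EXPA5* and *EXPA3* took 14.0% and 6.33% of the sum in WT and 0.644% and 0.405% in *quintuple*. *EXPA4* took 6.17 ± 2.01% of the sum in WT, 28.7 ± 8.15% in *quintuple* and 15.2 ± 4.51% in *octuple* (SD, n = 3). In the same order *EXPA1* took 27.2 ± 10.8%, 42.1 ± 5.13% and 32.4 ± 13.9%. On the scale of mean FPKM, *EXPA5* was 2.28-fold above *EXPA4* in WT, whereas *EXPA4* was 44.8-fold above *EXPA5* in *quintuple* and 1.97-fold above it in *octuple*. The *quintuple* ratio was 21.8, 44.4 and 117 in the 3 libraries, and 69.4 between the means without replicate 1. *EXPA6* was the second highest member in WT, *epn* and *octuple* and the third in *quintuple*, after *EXPA1* and *EXPA4*.

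**Figure D3:**
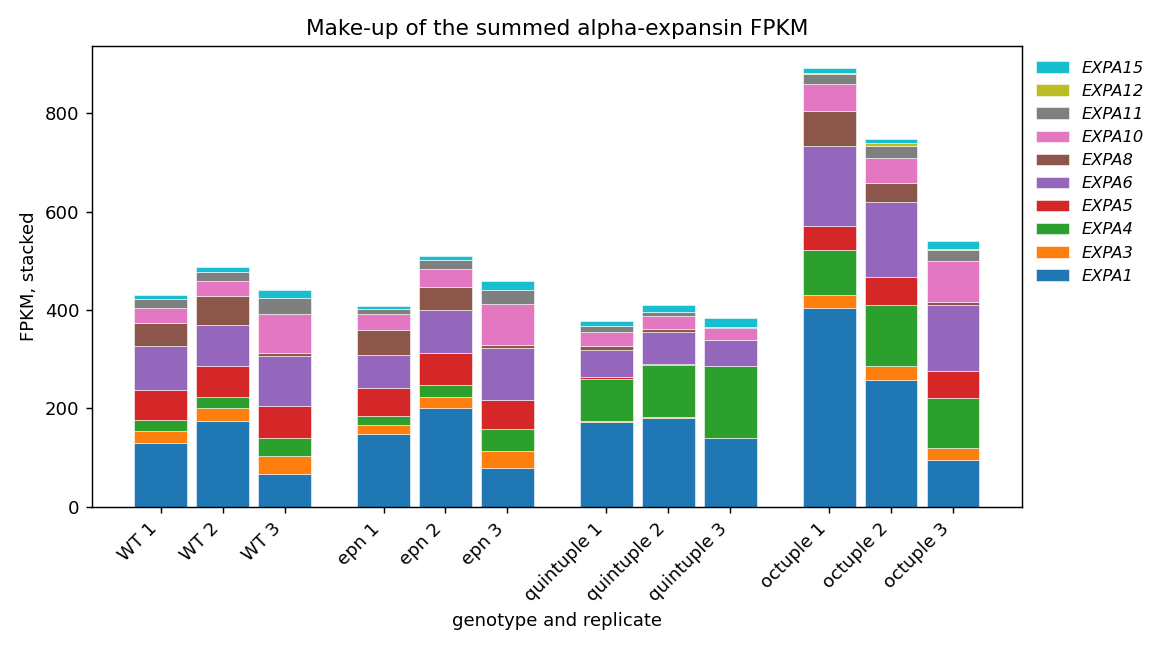
Deposited FPKM of the 10 alpha-expansins stacked for each library (y axis, from 0) by genotype and replicate (x axis). The *quintuple* bars sum to 377 to 410 FPKM with *EXPA1*, *EXPA4* and *EXPA6* making up most of them, and the *octuple* bars sum to 540.3 to 892 FPKM.

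Levels of other transcripts moved with these differences. The 4 epidermis and trichome markers (*ATML1*, *PDF2*, *GL1* and *GL2*) summed to 264 to 277 CPM in WT, 44.8 to 80.5 CPM in *quintuple*, where 1 of the 4 had no counts, and 224 to 282 CPM in *octuple*. The 4 guard cell markers summed to 52.8 to 62.9 CPM in WT, 25.4 to 38.5 CPM in *quintuple* and 38.0 to 47.5 CPM in *octuple*, and did not move as one. *MYB60*, *FAMA* and the *TMM* gene (TOO MANY MOUTHS) were lower in *quintuple*, the last at 0.375 against 17.1 CPM in WT, whereas *KAT1* averaged 26.9 ± 7.48 CPM there against 17.7 ± 2.66 CPM (SD, n = 3). Of 3 shoot meristem markers only *STM* was tested, and it had 3.14 to 5.84 CPM in WT and 0.232 to 0.440 CPM in *quintuple*, while *CLV3* and *WUS* had between 0 and 8 counts summed over any genotype. The 3 senescence markers, of which *SAG12* had no counts in WT, went from 7.38 to 23.0 CPM to 96.1 to 282 CPM. The part of these shifts in the alpha-expansin levels was not tested. In tissue extracts such as these, fewer cells of a type and less RNA per cell cannot be told apart.

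By Pearson's r of log2 CPM over the 12 libraries and 20103 genes, the genes most like *EXPA5* were AT2G10940, AT1G04800 and *HTH*, each at 0.998, the last being *HOTHEAD*, which in Arabidopsis keeps organs from fusing. *EXPA3* was most like *HA11* at 0.994, a proton pump of the plasma membrane, followed by AT2G10940 and AT2G19940 at 0.992 and 0.991. *EXPA4* was most like *TBL39*, AT2G41810 and *LRP1*, at 0.982, 0.973 and 0.969. *EXPA8* was most like *GH3.9*, AT1G21500 and AT1G19450, at 0.992, 0.991 and 0.990. *EXPA12* was most like AT2G14900, AT2G41230 and AT3G08030, at 0.954, 0.954 and 0.951. AT2G41230, named *ORS1* in the annotation and also written *OSR1*, is a promoter of organ growth. The 12 points share 4 genotypes and 3 replicate numbers, so these values describe likeness only.

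**Figure D4:**
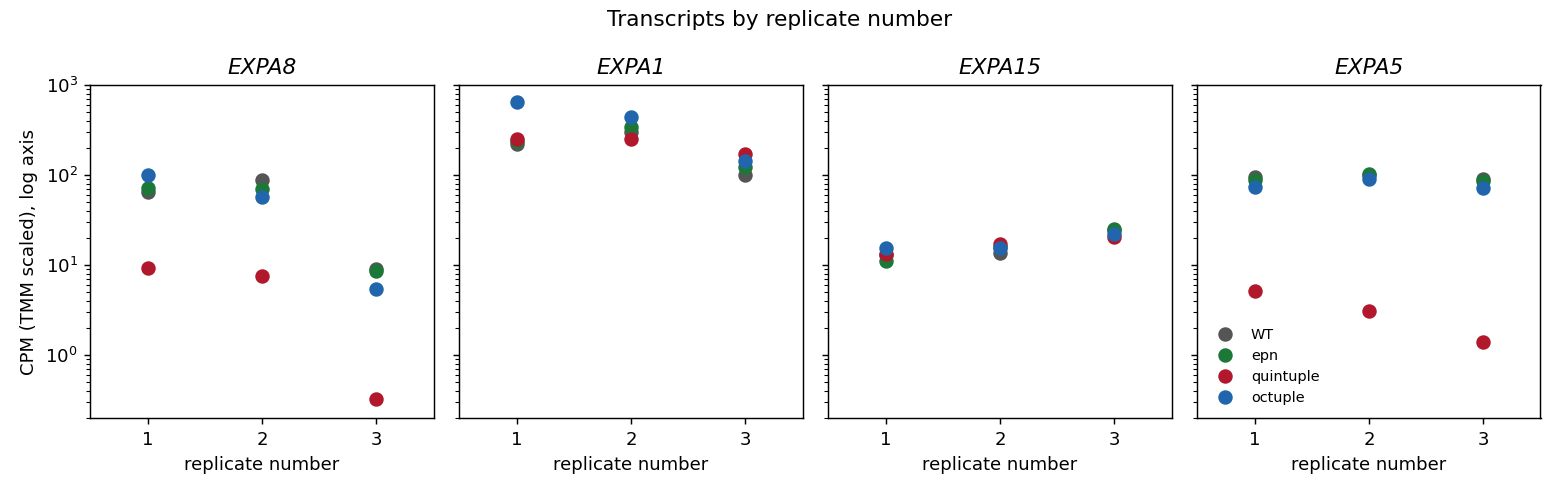
CPM with TMM scaling (y axis, log scale) of 4 alpha-expansins by replicate number (x axis), colored by genotype. *EXPA8* and *EXPA1* are lowest at replicate 3 in all 4 genotypes, *EXPA15* is highest there, and in *EXPA5* the *quintuple* libraries stand apart at each number.

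Whether the members differed between replicate numbers was not named in the choice of genes, which was made with earlier results of these data known. It was tested over all 12 libraries with genotype in the model, in an edgeR quasi-likelihood test added after the libraries had been seen. *EXPA8*, *EXPA1* and *EXPA15*, 3 of the 10 members, differed at an adjusted p below 0.05, as did 16.3% of the 20134 genes tested. *EXPA8* was lower in replicate 3 than in replicate 1 by a log2 difference of -3.59 (adjusted p = 0.000114), in all 4 genotypes. *EXPA1* was lower by a log2 difference of -1.21 (adjusted p = 0.0128) and *EXPA15* higher by 0.80 (adjusted p = 0.00663), again in 4 of 4 genotypes. *EXPA10* and *EXPA4* had log2 differences of 0.69 (adjusted p = 0.102) and 0.63 (adjusted p = 0.109) and did not pass. *EXPA3* and *EXPA11* had log2 differences of -0.08 and 0.02, and *EXPA5* of -0.43 (adjusted p = 0.414).

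Light-regulated growth factors differed in the same replicates, in gene lists chosen with earlier results of these data known. *PIF4* and *PIF5*, transcription factors that promote elongation in shade and darkness, were lower in replicate 3 by log2 differences of -4.01 (adjusted p = 1.77e-05) and -3.84 (adjusted p = 4.95e-06). *PIF7* (-1.99), *HBI1* (-1.92), *PRE1* (-2.04) and *RGA* (-0.52) passed as well, so that 6 of the 14 regulators of elongation differed, where 16.3% of all 20134 genes did. Among the 9 genes of wall acidification 8 differed, 7 of which were lower in replicate 3, including *SAUR21* at -2.73, and *AHA1* was higher at 0.78. The labels do not say how the replicates were grown or harvested.

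Of the 16 *EXPA* genes outside the set, 10 were in the count table. In *quintuple*-vs-WT 5 were tested, where 19.5% of all genes were called lower. *EXPA14* was called lower there, with 2.81 ± 0.848 CPM in WT and 0.149 ± 0.125 CPM in *quintuple* (log2 fold change -4.25, SE 0.74, adjusted p = 0.00362). It was also called lower in *octuple*-vs-WT (-1.84, SE 0.31, adjusted p = 0.0459) and in *octuple*-vs-*epn* (-2.26, SE 0.28, adjusted p = 0.0142), and its *octuple* level of 0.778 ± 0.0533 CPM lay below every WT library, whereas that of *EXPA3* lay within the range of WT and *epn*. The *octuple*-vs-WT call ended when any 1 of its 6 libraries was left out (adjusted p = 0.0785 to 0.194), with library totals alone, with all 12 libraries in 1 fit and with replicates 1 and 2 only, and the gene was not in the limma fit. That in *octuple*-vs-*epn* ended without *epn* replicate 1 or 2 or *octuple* replicate 1 or 2 (adjusted p = 0.0541 to 0.0763). In *octuple*-vs-*quintuple* it was called higher (2.43, SE 0.73, adjusted p = 0.0325), and not without *quintuple* replicate 2 or any 1 *octuple* library (adjusted p = 0.0686 to 0.0878). *EXPA9* (-0.25), *EXPA13*, *EXPA16* and *EXPA20* did not pass in *quintuple*-vs-WT, though *EXPA16* did with DESeq2 or without WT replicate 2. *EXPA20* shares 84.96% of its 50-base sequences with another gene, so its counts are uncertain. *EXPA2*, a germination gene, the root hair genes *EXPA7* and *EXPA18*, and *EXPA21* had between 0 and 6 counts summed over any genotype. *EXPA17* had 8, 12, 17 and 33 counts summed over WT, *epn*, *quintuple* and *octuple*. The other 6 genes of the list are not analysed here.

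In the beta-expansin and expansin-like branches, 6 of 10 genes were tested, and in *quintuple*-vs-WT 2 were called higher and 2 lower, where 19.5% of all genes were called each way. *EXPB3* at 0.67 (adjusted p = 0.0680) and *EXLB1* at -1.41 (adjusted p = 0.202) on the log2 scale did not pass. *EXLA1* rose in *quintuple* from 9.54 ± 6.91 CPM in WT to 90.4 ± 36.1 CPM (log2 fold change 3.24, SE 0.79, adjusted p = 0.0130), and *EXLA3* rose from 0.245 ± 0.161 to 2.36 ± 1.20 CPM (3.26, SE 0.69, adjusted p = 0.00758). *EXPB1* fell from 11.1 ± 7.04 to 0.494 ± 0.159 CPM (-4.47, SE 0.70, adjusted p = 0.00238) and *EXLA2* from 9.54 ± 5.66 to 2.22 ± 0.759 CPM (-2.10, SE 0.53, adjusted p = 0.0146), the latter not without *quintuple* replicate 1 (adjusted p = 0.0524). *EXLA1* overlaps another annotated gene. In *octuple*-vs-WT and *octuple*-vs-*epn* none of the 6 was called in edgeR's test without a block, with 2 and 1 at an unadjusted p below 0.05. *EXLA1* was called higher in both with the block (adjusted p = 0.00570 and 0.00226), with DESeq2 (adjusted p = 0.0394 and 0.0220) and with replicates 1 and 2 only, where *EXPB3* was called in *octuple*-vs-WT as well. In *octuple*-vs-*quintuple* *EXPB1* (4.29) and *EXLA2* (2.16) were called higher and *EXLA3* (-1.94) lower, where 16.7% and 14.9% of all genes were. The *EXLA3* call ended without *quintuple* replicate 1 or 2 or *octuple* replicate 1 or 3 (adjusted p = 0.0683 to 0.0742). With the block or DESeq2 *EXLB1* was called higher and *EXLA1* lower in that comparison. *EXLB1* was called lower in *quintuple*-vs-WT with the block, without *quintuple* replicate 3 and with replicates 1 and 2 only.

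**Figure D5:**
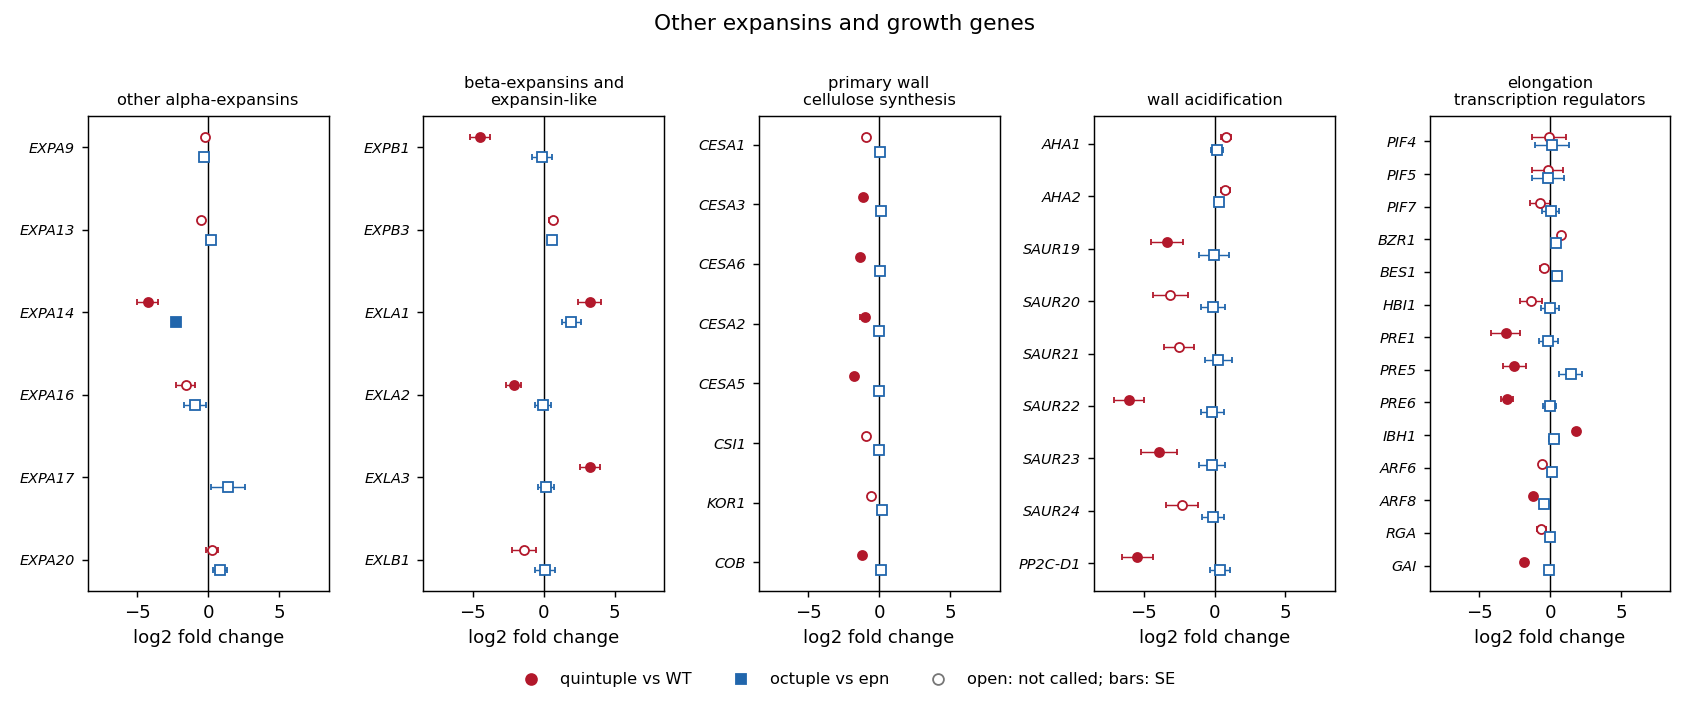
Fitted log2 fold change (x axis, edgeR, points with SE bars) of the tested genes of 5 lists in *quintuple*-vs-WT (circles) and *octuple*-vs-*epn* (squares). Filled symbols were called at an adjusted p below 0.05 and at least 2-fold. *EXPA14* is the one gene with a filled square, at -2.26.

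Several genes that act with expansins in growth were lower in *quintuple*. The lists of growth genes were chosen with earlier results of these data known, so the shares of them called are descriptions. Of 8 genes of primary wall cellulose synthesis, 5 were called lower (*CESA2*, *CESA3*, *CESA5*, *CESA6* and *COB*, the first 4 being catalytic subunits) and 0 higher, where 19.5% of all genes were called each way, with a list median of -1.08 on the log2 scale against 0.00 over all genes. *CESA5* had the largest difference at -1.78 (SE 0.21, adjusted p = 0.000813), and the *CESA2* call ended without WT replicate 1 (adjusted p = 0.0785) or 2 or *quintuple* replicate 3, and that of *CESA3* without *quintuple* replicate 3 (-0.99). With library totals alone or with limma, *CESA2*, *CESA3* and *COB* stayed under 2-fold. *CESA3* overlaps another annotated gene. In *octuple*-vs-*quintuple* 6 of the 8 were called higher, where 16.7% of all genes were. Of these, *CESA2* and *CSI1* were not called without *quintuple* replicate 3 or with replicates 1 and 2 only, nor *CESA2* without *octuple* replicate 1 or 2. With library totals alone or with limma, *CESA2*, *CESA3*, *CSI1* and *COB* stayed under 2-fold there too. *CESA1* was called with upper-quartile scaling (1.05) and without *quintuple* replicate 1 or 2 or *octuple* replicate 1. In *octuple*-vs-WT and *octuple*-vs-*epn* none was called in edgeR's test or by DESeq2, with 0 at an unadjusted p below 0.05.

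Of 9 genes of wall acidification, 4 were called lower in *quintuple*-vs-WT (*SAUR19*, *SAUR22*, *SAUR23* and AT5G02760, a phosphatase of the clade that opposes proton pumps), where 19.5% of all genes were, and 7 with the block, where 20.4% were. *SAUR22*, one of the small auxin-up RNAs that keep proton pumps active, was at -6.06 (SE 1.05, adjusted p = 0.00357), and the calls of *SAUR19* and *SAUR23* ended without WT replicate 2 (adjusted p = 0.155 and 0.112). They ended also without WT replicate 1 or *quintuple* replicate 2 or 3, and that of *SAUR19* without *quintuple* replicate 1. AT5G02760 overlaps 2 annotated genes. The pumps *AHA1* and *AHA2* were not called in edgeR's test with all 6 libraries. Their levels were 1391 ± 152 and 559 ± 260 CPM in *quintuple* against 799 ± 330 and 328 ± 33.5 CPM in WT. *AHA1* was called higher with limma (log2 fold change 1.13), without WT replicate 3 (1.17) and with replicates 1 and 2 only (1.09). *SAUR19* shares 18.5% of its 50-base sequences with other genes, so its counts are uncertain. In *octuple*-vs-*quintuple* 3 of 8 were called higher, where 16.7% of all genes were, and 6 with the block, where 17.7% were. The *SAUR23* call there ended without *quintuple* replicate 2 or *octuple* replicate 1 or 2.

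Of 14 transcription regulators of elongation, 1 was called higher (*IBH1*, an inhibitor, at 1.84, SE 0.22, adjusted p = 0.000871) and 5 lower in *quintuple*-vs-WT, where 19.5% of all genes were called each way. The lower ones were *PRE1* (-3.13), *PRE5* (-2.51) and *PRE6* (-3.06, SE 0.42, adjusted p = 0.00142), which counter such inhibitors, *ARF8* (-1.20), an auxin response factor, and *GAI* (-1.81), a DELLA repressor of gibberellin responses. The *PRE1* call ended without WT replicate 1 or 2 or *quintuple* replicate 1 or 2 (adjusted p = 0.0605 to 0.0991). That of *PRE5* ended without any 1 library other than *quintuple* replicate 1 (adjusted p = 0.0663 to 0.117), with no filter on low counts, with replicates 1 and 2 only and with the block (adjusted p = 0.0701). *HBI1* was called lower with the block (-1.58, adjusted p = 0.00604) and with replicates 1 and 2 only (-1.26). *ARF8* stayed under 2-fold with library totals alone or with limma. *PIF4* and *PIF5*, which differed most between replicates, were not called between genotypes. In *octuple*-vs-*quintuple* 5 of the 14 were called higher and 1 lower, where 16.7% and 14.9% of all genes were. With the block 7 were called higher, where 17.7% of all genes were, *HBI1* (1.75) and *PIF7* (1.19) joining. The calls of *BES1* (1.00), *PRE1* and *PRE5* ended without *octuple* replicate 1. Those of *PRE1* and *PRE5* ended also without replicate 2 of either genotype, *PRE1* without *quintuple* replicate 1 and *PRE5* without *quintuple* replicate 3. *BES1* fell under 2-fold with library totals alone, DESeq2, no filter, all 12 libraries in 1 fit or limma. It did so too without *quintuple* replicate 3 and with replicates 1 and 2 only. *BES1* and *PIF7* share 33.8% and 15.7% of their 50-base sequences with other genes, so their counts are uncertain. None of the 14 was called in *octuple*-vs-WT and *octuple*-vs-*epn* in edgeR's test or by DESeq2, with 3 and 2 at an unadjusted p below 0.05. The markers described above moved with these lists as well, and their part was not tested.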

How the data were processed

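RNA was isolated by the authors in TRIzol, and VAHTS Universal V6 libraries were read on a NovaSeq. The authors deposited counts, whole fragments per gene without normalization, and FPKM, those counts divided by the library total and a gene length. The submitters' processing notes name HISAT2, HTSeq and R 3.2.0, and the strand setting of the counting is not given in the sources used here. The length behind FPKM equalled the RefSeq TAIR10.1 exon length in 23784 of 23784 genes, so coordinates and sequences were taken from that build.

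Counts were fitted with edgeR 4.0.16 in R 4.3.3 (TMM, filterByExpr, two-sided quasi-likelihood test), with the 6 libraries of a pair in each fit, or all 12 for the interaction and the replicate test, and p-values were adjusted over all genes tested. Log2 fold changes are fitted values and CPM and FPKM levels are means ± SD of 3 replicates. Likeness used log2 CPM with a prior count of 2, and coding sequences were aligned with MAFFT 7.526. The fits were also run on simulated counts with 200 genes changed and a fixed spread between replicates (dispersion 0.03). Far more genes differed in *quintuple*, so those runs do not test the scaling there. Libraries held 38698646 to 44294404 counts. Limits from 3 counts cover counting error only. Replicate numbers were taken to pair the samples, since deviations from the genotype mean correlated at 0.18 to 0.79 in all 18 pairs of libraries with equal numbers (and -0.59 to 0.27 in the 36 with unequal numbers). Fold changes and SEs are from fits without the number as a block unless stated. Where the block changed a call, the gene or only the number of calls is given.

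The members and gene lists were chosen with earlier results of these data known. All members, all counted genes of the expansin lists and the growth genes called in a comparison could be named, along with the 3 genes most like a member by Pearson's r. The alternatives were other scalings, DESeq2 1.42.0, no filter, the block, all 12 libraries in 1 fit, limma 3.58.1 on log2(FPKM + 1) for genes with an FPKM of at least 1 in 3 libraries, and leaving out each library.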

Additional observations from a re-analysis of the deposited data

Results flagged for a closer look

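The interaction, (*octuple* - *epn*) minus (*quintuple* - WT), passed edgeR's quasi-likelihood test, with a Benjamini-Hochberg adjusted p below 0.05 and at least 2-fold, for 13.9% of 20134 genes as positive and 8.74% as negative. The 5 lists of other expansins and growth genes were chosen with earlier results of these data known. Of their 43 genes tested, 11 were called positive and 2 negative. In the expansin branches these were *EXPB1* at 4.37 and *EXLA3* at -3.09 on the log2 scale. The *EXPB1* call ended with limma (adjusted p = 0.0536), and that of *EXLA3* without any 1 of 7 of the 12 libraries (adjusted p up to 0.0691). In cellulose synthesis they were *CESA1* at 1.01, *CESA3* at 1.27, *CESA6* at 1.43, *CESA5* at 1.75 and *COB* at 1.30. *CESA1* fell under 2-fold without *epn* replicate 1, *quintuple* replicate 3 or *octuple* replicate 2 or 3, with library totals alone (0.78), DESeq2 (0.98) or limma (0.78) and with replicates 1 and 2 only, and the other 4 calls held in every alternative run. In wall acidification they were *SAUR22* at 5.89 and the phosphatase gene AT5G02760 at 5.85, the former with 1, 2 and 0 counts in *quintuple* and no call with limma (adjusted p = 0.130). Among the regulators they were *PRE5* at 3.96, *PRE6* at 3.06, *IBH1* at -1.54 and *GAI* at 1.76. The *PRE5* call ended without any 1 of 8 libraries (adjusted p up to 0.0751) and that of *IBH1* without any 1 of 6 (adjusted p up to 0.0713), and the former ended with replicates 1 and 2 only (adjusted p = 0.113), as did the latter (adjusted p = 0.0507). With the replicate block, 3406 of the 20134 genes were called positive and 2291 negative. In that fit 6 of 8 genes of cellulose synthesis, 7 of 9 of wall acidification and 6 of 14 regulators were called positive. As negative, 0, 0 and 1 were called. Without the block marker genes passed too, such as *FAMA* at 1.39 and *KAT1* at -1.45.

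*EXPA6* moved in opposite directions in the 2 backgrounds. Every *quintuple* library lay below every WT library (log2 fold change -0.92) and every *octuple* library above every *epn* library (0.78). Its interaction value was 1.71 on the log2 scale, and the difference was not tested on data other than those with which the gene was chosen.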

How the results depend on the processing

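Of 801 log2 fold changes of members under the alternatives, 781 stayed within 1 SD of replicates of the first value, 20 moved further, and 0 reversed among those called. Numbers of called genes are given below as other *EXPA* genes, beta-expansins with expansin-like genes, growth genes or all genes, and the cause of each change was not tested. In *quintuple*-vs-WT the other *EXPA* genes called were 1, and 2 with DESeq2 and 0 with limma. In *octuple*-vs-WT they were 1, and 0 with library totals, all 12 libraries in 1 fit, limma or replicates 1 and 2 only. In *octuple*-vs-*epn* they were 1, and 2 with replicates 1 and 2 only, in *octuple*-vs-*quintuple* 1, and 0 with limma, and in the interaction 0, and 1 with upper-quartile scaling, DESeq2 or the replicate block. Beta-expansins and expansin-like genes called in *octuple*-vs-WT were 0, and 1 with DESeq2, 1 with the replicate block and 2 with replicates 1 and 2 only. In *octuple*-vs-*epn* they were 0, and 1 under each of these 3 settings, in *octuple*-vs-*quintuple* 3, and 5 with DESeq2 or the replicate block, and in the interaction 2, and 4 with the block or replicates 1 and 2 only and 0 with limma. Growth genes called in *octuple*-vs-*quintuple* were 15, and 8 with limma, and in the interaction 11, and 20 with the replicate block.

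All genes called in *octuple*-vs-WT were 371, and 1026 with DESeq2, 1118 with the replicate block and 662 with all 12 libraries in 1 fit. In *octuple*-vs-*epn* they were 465, and 1140 with DESeq2, 1186 with the replicate block, 740 with all 12 libraries and 749 with replicates 1 and 2 only. In *epn*-vs-WT they were 0, and 40 with DESeq2, 104 with the replicate block, 3 with all 12 libraries and 7 with replicates 1 and 2 only. The setting with replicates 1 and 2 only was chosen after seeing the data. The share of calls that were higher moved from 49.98% to 62.2% (library totals) and 64.2% (limma) in *quintuple*-vs-WT, from 52.8% to 38.5% and 36.8% in *octuple*-vs-*quintuple*, and from 61.5% to 44.7% and 36.9% in the interaction.

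Without 1 library in turn, 5 libraries of a pair were fitted. All genes called then ranged from 7154 to 7629 in *quintuple*-vs-WT, 45 (without *octuple* replicate 1) to 215 in *octuple*-vs-WT, 75 (without *epn* replicate 2) to 357 in *octuple*-vs-*epn*, 5238 to 5896 in *octuple*-vs-*quintuple* and 3772 to 4475 in the interaction. Other *EXPA* genes ranged from 1 to 2, 0 to 0, 0 to 2, 0 to 1 and 0 to 1 in the same order, beta-expansins and expansin-like genes from 3 to 5, 0 to 0, 0 to 0, 2 to 4 and 1 to 3, and growth genes from 10 to 17, 0 to 0, 0 to 0, 11 to 17 and 8 to 11. At the depth of these libraries a gene with 0 counts could still be present at up to 0.0677 to 0.0775 CPM.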
